A study of Mus musculus with 4 samples.

Results

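The heavy chain variable genes, whose symbols begin with Ighv, were taken from the gene count table of follicular B (FOB) cells from WT and Hnrnpf bKO mice. The table held 55401 genes, of which 185 were Ighv genes, and 137 of these had at least 1 count in some library. WT mice were Hnrnpf fl/fl and carried no Cre. Hnrnpf bKO mice were Hnrnpf fl/fl with 1 allele of a B lineage Cre, by which exon 4 of Hnrnpf was removed in B lineage cells. The paper found this removal inefficient in early B cells of the bone marrow and far more complete in splenic B cells. How many cells had lost Hnrnpf before they rearranged the heavy chain was not tested. All mice were on the C57BL/6 background and 7 weeks old, carried floxed Hnrnpf on both chromosomes, and gave splenic B220+CD93-CD23highCD21low cells by FACS. There were 2 libraries for each genotype. The labels do not say whether each library came from 1 mouse, so p-values measure the spread between these libraries. The question here was which Ighv genes and families the sorted cells transcribed, and whether their usage differed between the genotypes. Each gene was expressed as a share of all Ighv counts in its library.

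A heavy chain is made once V(D)J recombination has joined a variable, a diversity and a joining segment in the developing B cell, and allelic exclusion leaves a single productive heavy chain in most mature cells. The promoter of the chosen variable gene then drives the transcript that is spliced to Ighm and Ighd, so that counts over Ighv genes in mature B cells follow which genes the population rearranged and how strongly each rearranged gene is transcribed. In bulk RNA, more cells using a gene and more RNA per cell cannot be told apart. The number after Ighv names the family, a group of genes of similar sequence: Ighv1 is the large J558 family in the part of the locus far from the constant genes, and Ighv2 and Ighv5 lie near them.

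The germline sequences below show how alike genes of the same family are, which bears on how far a read can be given to a gene. Each runs from 75 bases before the codon of the conserved second cysteine of the variable domain, which is in capitals, to the 3′ end of the annotated transcript used, near where recombination joins the gene to a diversity segment. For Ighv8-6 this transcript ends 4 bases before the annotated gene. They were read from GENCODE M21 transcripts (GRCm38), lie in the last coding exon and are written 5′ to 3′ on the gene strand, the minus strand of chromosome 12. The first 6 are from the gene with the most counts in each of the 6 families with the most counts, at chr12:114788372-114788455, chr12:113859149-113859232, chr12:113588267-113588352, chr12:114288152-114288237, chr12:114140692-114140775 and chr12:115294062-115294149:
Ighv1-26: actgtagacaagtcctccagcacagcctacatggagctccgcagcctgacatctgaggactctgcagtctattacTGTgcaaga
Ighv5-17: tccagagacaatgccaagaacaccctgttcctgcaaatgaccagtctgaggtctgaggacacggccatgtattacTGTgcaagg
Ighv2-2: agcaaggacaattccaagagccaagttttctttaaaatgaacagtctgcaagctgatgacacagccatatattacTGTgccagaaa
Ighv3-6: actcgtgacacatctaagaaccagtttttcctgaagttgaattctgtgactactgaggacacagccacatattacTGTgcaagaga
Ighv9-3: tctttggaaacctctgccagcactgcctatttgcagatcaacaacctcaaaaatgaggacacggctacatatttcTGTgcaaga
Ighv8-8: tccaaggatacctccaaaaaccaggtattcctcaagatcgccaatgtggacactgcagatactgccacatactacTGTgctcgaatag
The genes with an adjusted p of at most 0.05 between the genotypes in the edgeR fit of all 4 libraries are shown next, at chr12:115165781-115165864 and chr12:114708648-114708731:
Ighv8-6: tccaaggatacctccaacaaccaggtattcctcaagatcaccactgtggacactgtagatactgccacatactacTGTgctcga
Ighv1-19: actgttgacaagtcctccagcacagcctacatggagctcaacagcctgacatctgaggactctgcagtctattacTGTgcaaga
The last pair is Ighv1-72, known from responses to the hapten NP, and the gene most like it, at chr12:115757984-115758067 and chr12:115460999-115461082:
Ighv1-72: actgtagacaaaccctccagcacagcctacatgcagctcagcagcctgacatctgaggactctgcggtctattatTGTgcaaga
Ighv1-62-3: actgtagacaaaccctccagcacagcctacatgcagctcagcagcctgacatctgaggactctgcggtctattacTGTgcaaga
Over the 78 bases up to and with the cysteine codon, aligned at that codon, Ighv1-26 differed from Ighv1-19 at 3 positions and from Ighv5-17 at 30. Ighv1-72 and Ighv1-62-3 differed at 1 position.

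The libraries held 16360435 and 18908963 counts for WT and 15698567 and 18074619 for Hnrnpf bKO. Hnrnpf, the targeted gene, had 5780 and 6634 counts in WT against 1167 and 1194 in Hnrnpf bKO (fitted log2 ratio -2.32, SE 0.06, adjusted p = 1.05e-10, edgeR with Benjamini-Hochberg adjustment). Of 6 B cell markers 2 were lower in Hnrnpf bKO and none was higher. The lower markers were Ms4a1, which encodes CD20 (log2 fold change -0.29, SE 0.05, adjusted p = 0.0024, edgeR), and the transcription factor Pax5 (-0.20, SE 0.05, adjusted p = 0.0261, edgeR). Ptprc and Cd22, both at -0.12, and Cd79a and Cd79b, the signalling chains of the B cell receptor, at 0.10 and 0.11, did not pass. Of the 4 follicular markers 3 were higher, and of the 6 marginal zone markers 2 were higher and 3 lower. Of the 5 myeloid markers 2, S100a8 and S100a9, were higher, and the summed level of the 5 was 11.2 and 17.6 CPM (counts scaled to the library total) in WT against 21.7 and 32.4 in Hnrnpf bKO. None of the 5 T cell, the 5 germinal center or the 5 tested plasma cell markers passed. The summed plasma cell markers were at 328 and 353 CPM in WT versus 326 and 321 in Hnrnpf bKO. Most of this sum was Irf4, at 233 and 238 CPM in WT versus 215 and 218 in Hnrnpf bKO, followed by Xbp1. Jchain was at 3.67 and 12.7 CPM in WT versus 11.1 and 8.91 in Hnrnpf bKO. Sdc1 was at 14.5 and 14.6 CPM in WT versus 13.1 and 20.4 in Hnrnpf bKO. Of the 2 tested markers of immature cells, Cd93, the antigen against which the cells were gated, was higher in Hnrnpf bKO (138 and 222 counts in WT against 261 and 354 in Hnrnpf bKO). The other, Vpreb3, had 1049 and 1306 counts in WT against 995 and 1080 in Hnrnpf bKO and did not pass (log2 fold change -0.10, adjusted p = 0.477, edgeR). Igll1 and Rag2 were at 0 counts in every library. WT library 1 stood apart in Igha, with 314 counts against 1228 to 1454 in the other libraries, and in Jchain, with 60 against 161 to 240. The part of these cell type markers in the Ighv values was not tested.

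Ighv genes together took about the same small part of each library. Their summed counts were 15606 and 17630 in WT against 15982 and 18518 in Hnrnpf bKO, which is 954 and 932 CPM in WT versus 1018 and 1025 CPM in Hnrnpf bKO. Both Hnrnpf bKO libraries were above both WT libraries, but the difference of the sum was small and did not pass the test (log2 fold change 0.13, SE 0.05, 95% interval 0.03 to 0.22, adjusted p = 0.130, edgeR with Benjamini-Hochberg adjustment over all genes). Without WT library 1 the log2 fold change of the sum was 0.15. Ighm, the constant gene of IgM to which most of these transcripts are spliced, had a log2 fold change of 0.03 (SE 0.05, adjusted p = 0.771, edgeR), and Ighd, the constant gene of IgD made from the same primary transcript, was higher in Hnrnpf bKO with 45691 and 57580 counts in WT against 56006 and 62521 in Hnrnpf bKO (log2 fold change 0.28, SE 0.05, adjusted p = 0.0045, edgeR). With sums of this size, a gene at 0 in a library could still hold up to 0.0162% to 0.0192% of its Ighv counts (3 counts, counting error only).

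Ighv1, Ighv5, Ighv2, Ighv3 and Ighv9 were the most used families, in this order, in all 4 libraries. Ighv1 held 60.2% and 60.4% of Ighv counts in WT versus 59.7% and 59.0% in Hnrnpf bKO. Both Hnrnpf bKO libraries were lower, by 0.952 percentage points in the mean (60.3% ± 0.12 in WT against 59.4% ± 0.514 in Hnrnpf bKO, SD, n = 2). An exact permutation test over 2 against 2 libraries cannot give a two-sided p below 0.333, the value found for this difference. The Wilson 95% interval of the Ighv1 share in a single library was 59.5% to 61.0% and 59.7% to 61.1% in WT libraries 1 and 2. It was 59.0% to 60.5% and 58.3% to 59.7% in Hnrnpf bKO libraries 1 and 2. These intervals cover counting error only. Ighv5, the family nearest the constant genes together with Ighv2, held 8.14% and 8.12% in WT versus 8.48% and 7.80% in Hnrnpf bKO. Ighv2, the Q52 family, held 5.74% and 6.20% in WT against 5.84% and 6.26% in Hnrnpf bKO. The groups overlapped for both of these families. Ighv3 held 5.35% and 5.08% in WT versus 5.48% and 5.50% in Hnrnpf bKO, so that both Hnrnpf bKO libraries were higher.

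Ighv9, Ighv8 and Ighv14 each held between 4.32% and 5.20% in every library, and their groups overlapped. Of the smaller families, Ighv6 was at 1.96% and 2.05% in WT against 2.14% and 2.19% in Hnrnpf bKO, with both Hnrnpf bKO libraries higher. The next values were 1.77% to 2.13% for Ighv10 and 1.02% to 1.23% for Ighv7, with overlapping groups. Ighv4 held 0.525% and 0.522% in WT versus 0.638% and 0.610% in Hnrnpf bKO, with both Hnrnpf bKO libraries higher. Ighv13, Ighv12, Ighv15 and Ighv11 stayed between 0.0681% and 0.41% in every library. Among these 4, Ighv12 was higher and Ighv15 lower in both Hnrnpf bKO libraries, each on fewer than 70 counts a library. The only gene of Ighv16, Ighv16-1, had 0 counts in all 4 libraries. Groups without overlap were common in the whole table. In CPM, both Hnrnpf bKO libraries were above both WT libraries for 23.5% of all genes tested and below them for 26.9%.

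**Figure D1:**
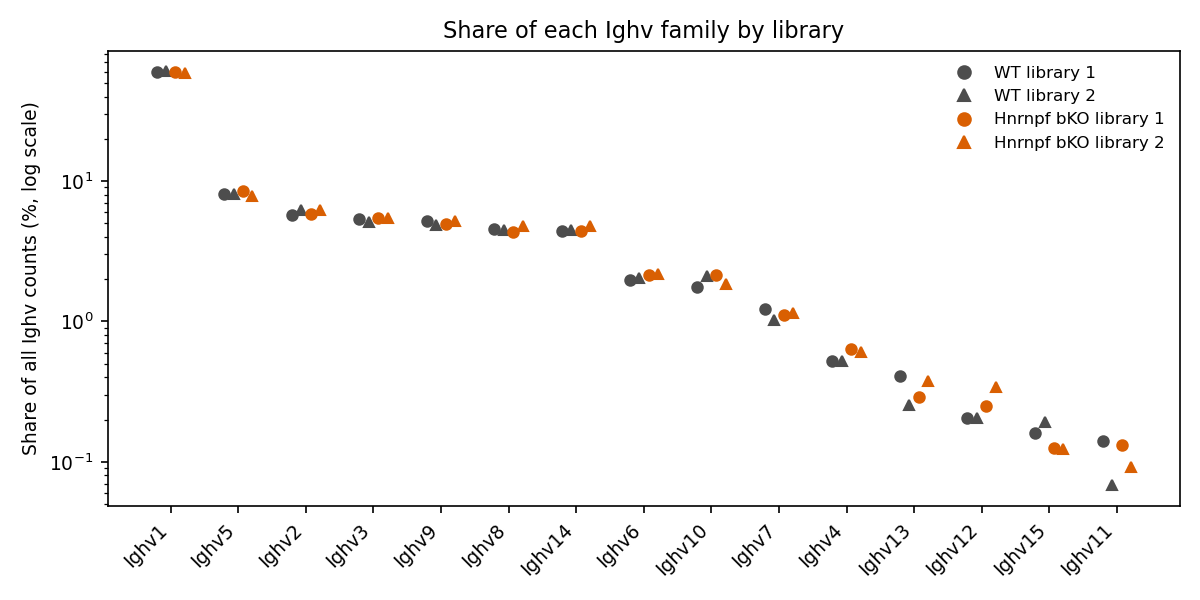
Share of all Ighv counts (%, log scale) held by each of the 15 Ighv families with counts, ordered by total count, with 1 point per library (grey for WT, orange for Hnrnpf bKO, circles for library 1 and triangles for library 2). Ighv1 lies between 59.0% and 60.4% in all 4 libraries, and the points of a family spread apart only at the low shares on the right.

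When the counts of each family were summed and fitted with all other genes of the table, none of the 15 families tested passed an adjusted p of 0.05 (edgeR), where 6.98% of all rows of that table passed. At an unadjusted p under 0.05, 3 of the 15 passed (Ighv1, Ighv3 and Ighv6), where 20.5% of all rows did, and DESeq2 called 0 families as well. The fitted log2 fold changes of the 7 largest families lay between 0.10 for Ighv1 and 0.20 for Ighv3, so that on the scale of all genes the value of Ighv1 was positive although its share of Ighv counts was lower. The intervals were narrow for the largest families, from 0.00 to 0.20 for Ighv1 and from -0.02 to 0.27 for Ighv5, and wide for Ighv11, from -0.83 to 1.28.

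Within the families, usage was uneven, and Ighv1-26 led in every library. It had 1019 and 1192 counts in WT versus 1183 and 1172 in Hnrnpf bKO, or 6.53% and 6.76% of Ighv counts in WT against 7.40% and 6.33% in Hnrnpf bKO. The Hnrnpf bKO libraries lay on either side of the WT libraries in share. The next genes by mean count were Ighv1-82, Ighv3-6, Ighv9-3, Ighv1-9, Ighv1-64, Ighv1-80, Ighv1-55, Ighv1-53 and Ighv5-17, with shares from 2.33% to 4.13% in any library. Most of these 10 genes are of the Ighv1 family. The 10 most used genes of each library held 34.3% and 34.2% of its counts in WT versus 33.9% and 32.5% in Hnrnpf bKO, and 18 genes were enough to reach 50% of the Ighv counts in every library. Per length, on the deposited FPKM scale, Ighv1-26 was also the highest, with a mean of 189 FPKM over the 4 libraries. Ighv3-6 followed at 100.4 FPKM, Ighv9-3 at 95.1 and Ighv1-82 at 91.8, so that the second place by count and by length-scaled level went to different genes. The median over the 113 genes annotated as V genes was 12.8 FPKM.

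**Figure D2:**
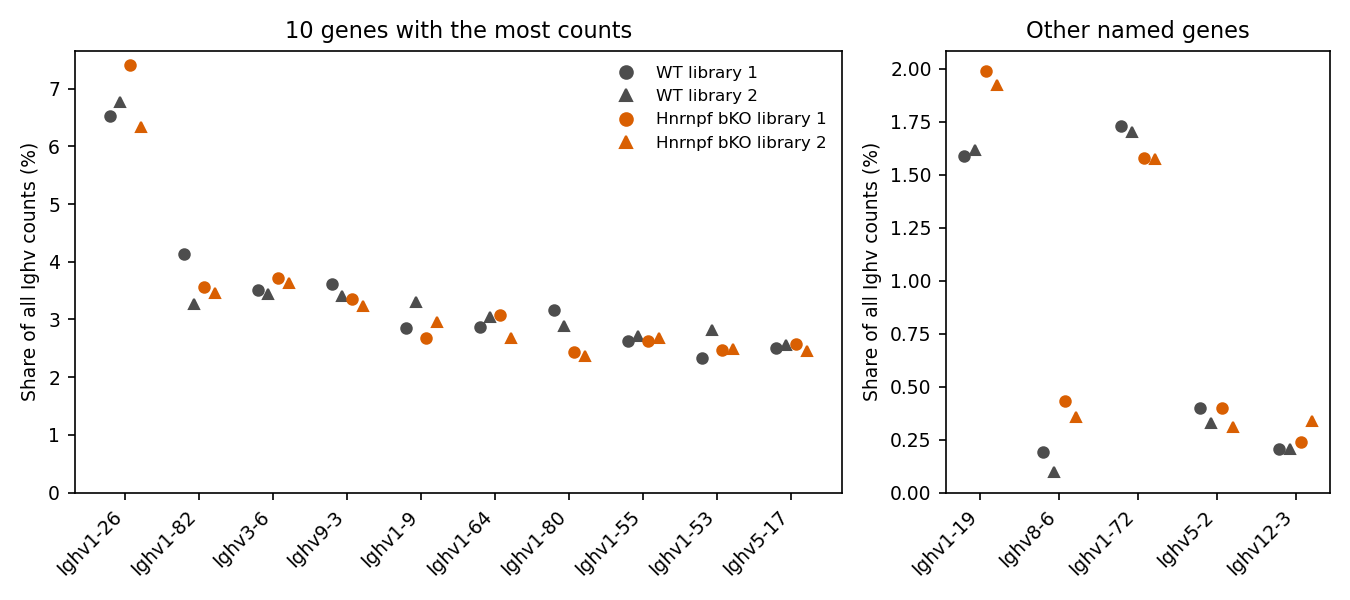
Share of all Ighv counts (%) of the 10 Ighv genes with the most counts (left) and of 5 further genes (right), with 1 point per library (grey for WT, orange for Hnrnpf bKO) and separate scales from 0. Ighv1-26 is highest in all 4 libraries at 6.33% to 7.40%, and in the right panel the Hnrnpf bKO points of Ighv1-19 and Ighv8-6 lie above the WT points.

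None of these 10 genes passed the test between genotypes. The adjusted p was lowest for Ighv3-6, which had 3.51% and 3.44% of Ighv counts in WT against 3.72% and 3.63% in Hnrnpf bKO (log2 fold change 0.21, SE 0.08, adjusted p = 0.171, edgeR). Ighv1-80 was the only one of the 10 with a negative log2 fold change. It had 493 and 508 counts in WT against 389 and 439 in Hnrnpf bKO, which is 3.16% and 2.88% of Ighv counts in WT against 2.43% and 2.37% in Hnrnpf bKO, without overlap (log2 fold change -0.20, SE 0.10, adjusted p = 0.269, edgeR). With libraries scaled to the Ighv total in place of all genes, Ighv1-80 was lower at a log2 fold change of -0.33 with an adjusted p of 0.0357 (edgeR). That scaling moved the median of all genes to -0.13, and 2345 genes of the whole table passed, against 985 before. With DESeq2 the adjusted p of Ighv1-80 was 0.723.

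Ighv8-6 was the only Ighv gene with a change of at least 2-fold that passed, and it was higher in Hnrnpf bKO. This V gene lies at chr12:115165777-115166220, 1743 kb from Ighm, among genes of the Ighv1 family. It had 30 and 17 counts in WT versus 69 and 66 in Hnrnpf bKO, or 0.192% and 0.0964% of Ighv counts in WT versus 0.432% and 0.356% in Hnrnpf bKO. Per length this was 5.12 and 2.51 FPKM in WT against 12.3 and 10.2 in Hnrnpf bKO. The groups did not overlap, and the WT libraries differed from each other by 1.99-fold in share. The log2 fold change was 1.58 (SE 0.36, 95% interval 0.82 to 2.36, adjusted p = 0.0175, edgeR with Benjamini-Hochberg adjustment), and the adjusted p was 0.0387 with DESeq2. The call rested on few counts: without WT library 2 the log2 fold change was 1.14 with an adjusted p of 0.0803, and without Hnrnpf bKO library 1 it was 1.45 with an adjusted p of 0.0648 (edgeR). It was 2.17 with an adjusted p of 0.0017 without WT library 1, and 1.71 with an adjusted p of 0.0057 without Hnrnpf bKO library 2 (edgeR). On the log2(FPKM + 0.1) scale limma gave 1.61 with an adjusted p of 0.128. Its closest relative, Ighv8-13, is 97.6% identical over the aligned bases and had 0 counts in every library. The Ighv8 family as a whole did not pass, with a log2 fold change of 0.15 (SE 0.08, adjusted p = 0.365, edgeR), and its most used gene Ighv8-8 had 374 and 452 counts in WT against 322 and 474 in Hnrnpf bKO.

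Ighv1-19 passed without reaching 2-fold. It had 248 and 285 counts in WT versus 318 and 356 in Hnrnpf bKO, and its shares of 1.59% and 1.62% in WT versus 1.99% and 1.92% in Hnrnpf bKO did not overlap and differed little within each genotype. The log2 fold change was 0.41 (SE 0.11, 95% interval 0.17 to 0.65, adjusted p = 0.0421, edgeR). It did not pass with DESeq2 (adjusted p = 0.247), with limma on log2(FPKM + 0.1) (adjusted p = 0.0587), with libraries scaled to the Ighv total (log2 fold change 0.29, adjusted p = 0.105, edgeR), or when any of the 4 libraries was left out (log2 fold change 0.40 to 0.43, adjusted p 0.0895 to 0.14, edgeR). Ighv1-26, the most similar gene by sequence (96.1% identical over 305 aligned bases of the last exon), did not pass.

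Of the 185 Ighv genes 103 had enough counts to be tested, and the other 82 were left out by the filter on low counts. Ighv8-6 was thus 1 of 103 called at an adjusted p of 0.05 and 2-fold, where 0.899% of the 14123 genes tested in the whole table were called, so that the share of Ighv genes was close to that of all genes. With no limit on the fold change 2 of 103 passed, where 6.97% of all genes tested did. At an unadjusted p under 0.05, 10 Ighv genes passed, all higher in Hnrnpf bKO, against 20.3% of all genes tested. The Ighv genes thus stood below the background at each of the last 2 limits. The median SE of a log2 fold change was 0.20 for Ighv genes and 0.11 for all genes tested.

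**Figure D3:**
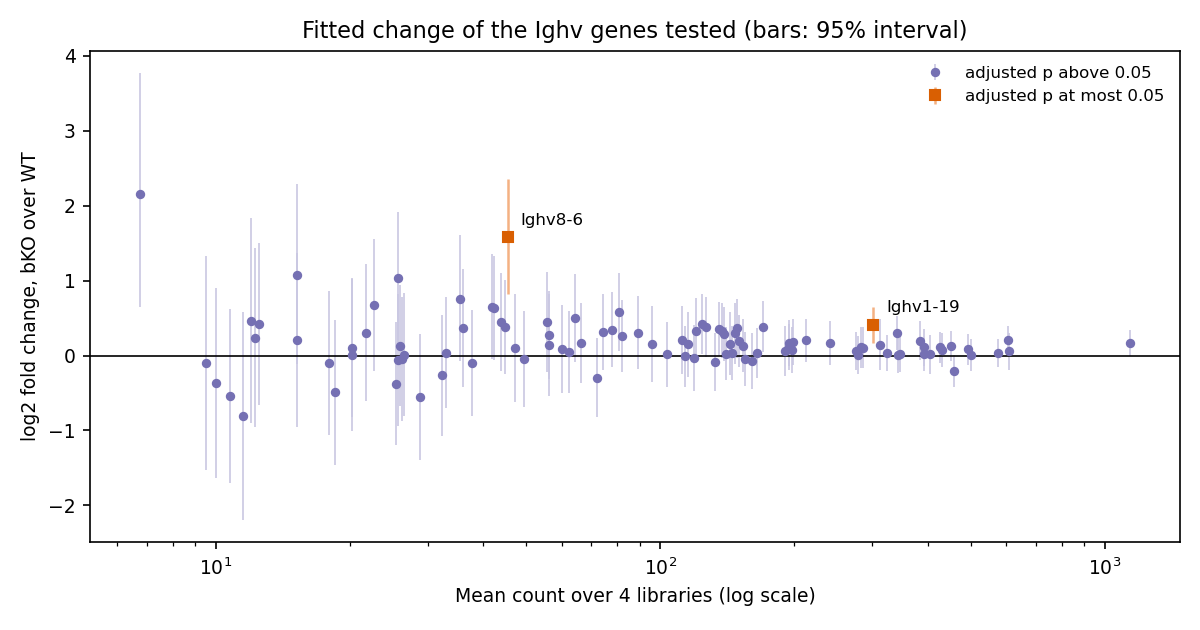
Fitted log2 fold change of Hnrnpf bKO over WT for the 103 Ighv genes tested, against the mean count over 4 libraries (log scale), with 95% intervals as bars. Genes with many counts lie close to 0 and mostly just above it, and Ighv8-6 and Ighv1-19 (orange squares) are the genes with an adjusted p of at most 0.05.

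The Ighv genes leaned upward together by a small amount when libraries were scaled on all genes. Of the 103 tested, 83 had a positive log2 fold change, with a median of 0.13, against 49.6% of all genes tested and a median of -0.00. In CPM both Hnrnpf bKO libraries were above both WT libraries for 39 of the 103 genes, where 23.5% of all genes tested were, and below them for 6, where 26.9% were. Scaling each library to its Ighv total moved the median of all genes to -0.13 and that of the Ighv genes to 0.00. Such scaling takes out any shift common to the Ighv genes. As shares of the Ighv counts, 25 of the 103 genes did not overlap with Hnrnpf bKO higher and 19 with Hnrnpf bKO lower. Shares add up to the same total in every library, so that rises and falls must offset each other on this scale. Shares of this kind were not computed for other genes. Among the 54 genes averaging at least 100 counts, which held 88.3% of Ighv counts, log2 fold changes ran from -0.20 to 0.42. At the upper end were Ighv1-42 with 101 and 117 counts in WT against 118 and 160 in Hnrnpf bKO, Ighv1-19, and Ighv10-3 with 128 and 177 in WT versus 178 and 198 in Hnrnpf bKO. At the lower end were Ighv1-80, Ighv1-61 with 142 and 138 in WT against 117 and 135 in Hnrnpf bKO, and Ighv10-1 with 148 and 192 in WT versus 162 and 142 in Hnrnpf bKO. Ighv10-3 and Ighv10-1, the V genes of the small Ighv10 family with counts, are 97.1% identical and had log2 fold changes of 0.38 (SE 0.16, adjusted p = 0.180, edgeR) and -0.08 (SE 0.17, adjusted p = 0.861, edgeR).

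Genes known from particular responses or B cell subsets were all present, and none passed. Ighv1-72, which dominates the C57BL/6 response to the hapten NP, had 270 and 300 counts in WT against 252 and 291 in Hnrnpf bKO. Its shares were 1.73% and 1.70% in WT against 1.58% and 1.57% in Hnrnpf bKO, lower in both Hnrnpf bKO libraries. Its log2 fold change on the scale of all genes was 0.00 (95% interval -0.25 to 0.25, adjusted p = 0.993, edgeR). Reads of Ighv1-72 can in part not be told from those of Ighv1-62-3 (7 to 19 counts), to which it is 99.0% identical: 71.3% of its 150-base windows occurred in no other Ighv gene. Ighv5-2, one of the variable genes closest to the diversity segments and used often in early repertoires, had 62 and 58 counts in WT versus 64 and 57 in Hnrnpf bKO. Ighv7-1, known from antibodies to phosphorylcholine, had 33 and 32 in WT against 48 and 31 in Hnrnpf bKO. Its Hnrnpf bKO libraries differed from each other more than the genotypes did.

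Ighv11-2 and Ighv12-3, known from B-1 cells that bind phosphatidylcholine, were among the genes with few counts. Ighv11-2 had 20 and 9 counts in WT versus 18 and 14 in Hnrnpf bKO. Ighv12-3 had 32 and 36 counts in WT against 38 and 63 in Hnrnpf bKO, higher in both Hnrnpf bKO libraries (log2 fold change 0.63, SE 0.32, adjusted p = 0.293, edgeR). Of the 5 B-1 cell markers none passed as higher and 1, Spn, was lower in Hnrnpf bKO. The summed level of the 5 was 58.1 and 75.3 CPM in WT versus 55.6 and 58.9 in Hnrnpf bKO. Spn alone gave 34.0 and 39.2 CPM of this in WT versus 26.6 and 27.2 in Hnrnpf bKO. Among the others, log2 fold changes were positive for Bhlhe41 (0.31) and Cd9 (0.09) and negative for Cd5 (-0.28) and Zbtb32 (-0.68). How many B-1 cells the libraries held was not tested.

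The genes that lead the remaining families did not pass either. Ighv2-2 had 314 and 391 counts in WT versus 297 and 385 in Hnrnpf bKO. Ighv14-2 had 297 and 361 in WT against 291 and 349 in Hnrnpf bKO. In both, library 2 of each genotype was above library 1, as were the totals of the libraries. Ighv6-3 had 185 and 221 counts in WT versus 205 and 239 in Hnrnpf bKO. Ighv7-3, Ighv4-1, Ighv13-2 and Ighv15-2 had 118 to 179, 67 to 90, 45 to 70 and 20 to 34 counts in a library. Their log2 fold changes were 0.16, 0.26, 0.14 and -0.38, each with a 95% interval that included 0 (edgeR).

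Libraries of the same genotype differed nearly as much in Ighv usage as libraries of different genotypes. The share of Ighv counts that would have to move to another gene to make a pair of libraries equal was 5.47% for the WT pair and 5.58% for the Hnrnpf bKO pair, and 5.60% to 6.21% for pairs of different genotype. The chi-square of the counts per degree of freedom was 1.72 and 1.97 within the genotypes and 1.82 to 2.31 between them. Over all genes these values were 4.13 and 3.77 within and 9.92 to 11.2 between. This statistic grows with the counts per gene for the same relative difference, and the Ighv genes held fewer counts each. The gap among all genes therefore cannot be set against that among the Ighv genes. No pair of libraries was alike to within sampling noise. Among Ighv genes with a mean of 100 to under 1000 counts, the median SD of log2 CPM within a genotype was 0.105 (53 genes), beside 0.0958 for the 5852 other genes in that range.

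The largest gaps between libraries of the same genotype, among genes averaging at least 100 counts, were in the Hnrnpf bKO mice. Ighv1-81 took 1.495% and 2.18% of Ighv counts there, a ratio of 1.46. Ighv1-78 took 0.776% and 0.567%, and Ighv1-66 took 0.569% and 0.778%. Their WT shares were 1.76% and 1.89%, 0.801% and 0.692%, and 0.666% and 0.613%. The groups overlapped for all 3 genes.

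The breadth of the repertoire was alike in the 4 libraries. Counts were found on 126 and 128 Ighv genes in WT against on 125 and 129 in Hnrnpf bKO. The effective number of genes, from the Shannon entropy of the shares, was 63.9 and 64.1 in WT against 64.6 and 66.1 in Hnrnpf bKO. The Simpson form, which weights the most used genes more, gave 46.6 and 46.7 in WT versus 46.2 and 49.1 in Hnrnpf bKO. The Hnrnpf bKO libraries were higher by the first measure and lay on either side of WT by the second.

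All 185 genes lie on chromosome 12 in an interval of 2437 kb (chr12:113572927-116010093, GRCm38), on the minus strand except for 2, the IG_LV genes that share the symbols Ighv5-8 and Ighv1-13 with another gene each. Counts were found along the whole interval. In steps of 500 kb from Ighm, the genes within 500 kb held 14.1% and 14.5% of Ighv counts in WT against 14.6% and 14.2% in Hnrnpf bKO. The step from 1000 to 1500 kb, in which Ighv1-26 lies, held the most, 26.0% and 27.7% in WT versus 27.7% and 26.4% in Hnrnpf bKO. The step from 2000 to 2500 kb was the only one of 6 whose groups did not overlap, with 19.8% and 19.0% in WT against 18.7% and 18.4% in Hnrnpf bKO. This step holds Ighv1-80, whose shares are given above. Separation of this kind was common: in CPM, both Hnrnpf bKO libraries were above both WT libraries for 23.5% of all genes tested and below them for 26.9%. Steps differ in how many genes they hold, from 50 genes at 1000 to 1500 kb to 5 in the step farthest from Ighm, and the median level of their V genes, per length, was between 10.9 FPKM at 500 to 1000 kb and 18.7 FPKM in the farthest step.

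**Figure D4:**
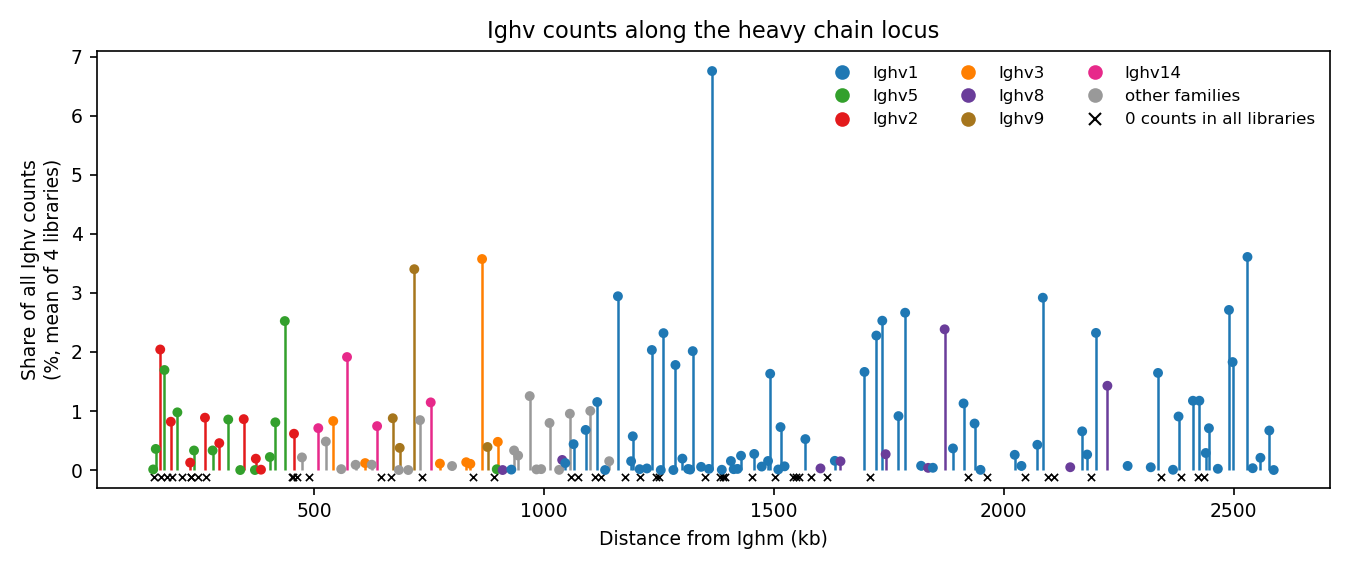
Mean share of all Ighv counts (%, 4 libraries) of each Ighv gene against its distance from Ighm (kb), coloured by family, with crosses for the 48 genes at 0 counts in all libraries. Used genes and genes at 0 are found side by side along the whole interval, and the highest point is Ighv1-26.

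Most of the genes without counts were annotated as pseudogenes. GENCODE M21 lists 113 of the 185 as V genes, 70 as V pseudogenes and 2 as in the class IG_LV. The pseudogenes held 0.795% and 0.879% of Ighv counts in WT versus 0.901% and 0.977% in Hnrnpf bKO, higher in both Hnrnpf bKO libraries. Of the 48 genes at 0 in every library 39 were pseudogenes, 2 were the IG_LV genes and 7 were V genes. These 7, named after their values were seen, were Ighv7-2, Ighv16-1, Ighv1-16, Ighv1-24, Ighv1-62-1, Ighv8-9 and Ighv8-13. None of the 7 shared most of its 150-base windows with another Ighv gene.

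Sequence likeness limits how surely counts belong to single genes. There were 20 genes with another Ighv gene at 98% identity or more, and they held 10.2% and 9.67% of Ighv counts in WT against 9.37% and 9.62% in Hnrnpf bKO. The extreme pair was Ighv1-62-2 and Ighv1-71, named after their values were seen, which are 100% identical over the aligned bases, and their counts (37 to 51 and 4 to 12) are uncertain for each gene alone. Reads that cross the joint to a diversity segment, or that carry mutations, were aligned to the germline genome, and how many were lost in this way was not tested.

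Of the genes listed for V(D)J recombination and for locus structure and V promoters, 4 of 27 tested passed, all lower in Hnrnpf bKO. Over the whole table, 2.83% of all genes tested were lower at an adjusted p of 0.05 (edgeR). The SEs of the 4 were 0.05 to 0.07, beside a median of 0.11 for all genes tested, so that smaller changes could pass. Of the 16 genes of V(D)J recombination, 13 were tested, none was higher and 1 was lower in Hnrnpf bKO, and their median log2 fold change was -0.03 beside -0.00 for all genes tested. The lower gene was Polm, a polymerase of end joining, with 1906 and 2093 counts in WT versus 1509 and 1509 in Hnrnpf bKO (log2 fold change -0.33, SE 0.07, adjusted p = 0.0135, edgeR). Rag1, a subunit of the recombinase, had 1 count in all, and Rag2, its partner, had 0. Of the 14 factors of locus structure and V promoters none was higher and 3 were lower, with a median log2 fold change of -0.09. Pou2f2, which binds the octamer of V promoters, had 6343 and 7589 counts in WT against 4516 and 5964 in Hnrnpf bKO (log2 fold change -0.34, SE 0.06, adjusted p = 0.0062, edgeR). Pax5 and Ebf1, transcription factors of B cell identity, were the other 2, with log2 fold changes of -0.20 and -0.24. The coactivator Pou2af1 (0.16, SE 0.06, adjusted p = 0.129, edgeR) and the architectural protein Ctcf (0.03, SE 0.06, adjusted p = 0.798, edgeR) did not pass.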

How the data were processed

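RNA of sorted splenic FOB cells was sequenced as 150-base read pairs from poly(A)-selected libraries. According to the methods and the submitters' processing notes, the authors trimmed reads with Cutadapt 1.9.1, aligned them with HISAT2 2.0.1 to GRCm38 and counted them with HTSeq 0.6.1. The deposited counts are whole numbers per gene without normalization. The deposited FPKM values were made by the authors from these counts, gene size and library total. The strand setting, the treatment of reads with several alignments and the annotation release are not given in the sources used here. The splicing table holds the authors' own comparison (FDR and inclusion differences) and was not used.

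Genes whose symbol starts with Ighv were taken as members and grouped by the number after Ighv. All 185 gene identifiers matched GENCODE M21 with the same start and end. Counts were tested with edgeR 4.0.16 (R 4.3.3; TMM, filterByExpr, glmQLFit and glmQLFTest, genotype as the only term) over all 14123 genes left by the filter, with Benjamini-Hochberg adjustment. A gene was called where the adjusted p did not exceed 0.05 and the level differed by 2-fold or more. For families and the total, the Ighv rows were replaced by their sums in the whole table. SDs and exact permutation tests (scipy 1.17.1, two-sided) compared 2 with 2 libraries. Wilson intervals and limits at 0 counts cover counting error only. Identity between genes came from blastn 2.17.0 alignments of at least 250 bases of the last exon of GENCODE transcripts. The gene fits were tested on simulated data.

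Alternatives were RLE factors, no filter, at least 10 counts in every library, DESeq2 1.42.0, Ighv-total scaling, limma-trend (limma 3.58.1) on log2(FPKM + 0.1) or log2(FPKM + 1) where the mean reached 0.5 FPKM, a replicate block, and leaving out each library. The genes named were the 10 with the highest mean share, those called, the 3 highest and 3 lowest log2 fold changes and the 3 largest gaps within a genotype among genes averaging 100 counts or more, the leading gene of each family, and 5 genes known from NP, early, phosphorylcholine and B-1 repertoires. 1 B cell marker is not reported here. The members and gene lists were chosen with earlier results of these data known.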

Additional observations from a re-analysis of the deposited data

How the results depend on the processing

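The number of Ighv genes called (1) was 0 with limma on log2(FPKM + 0.1) or log2(FPKM + 1), and 0 to 1 when a library was left out. The number at an adjusted p of 0.05 (2) was 1 with DESeq2, 1 with the replicate block, 0 with either limma fit, and 0 to 1 when a library was left out. Ighv8-6 lost its call in both limma fits and without WT library 2 or Hnrnpf bKO library 1. The number of families that passed was 0 in every setting, and the log2 fold change of the summed Ighv counts stayed between 0.11 and 0.15 without passing. Scaled to the Ighv total, the log2 fold change was -0.071 for Ighv1-82, -0.091 for Ighv9-3, -0.13 for Ighv1-9, -0.043 for Ighv1-64, -0.0058 for Ighv1-55, -0.055 for Ighv1-53, -0.018 for Ighv5-17, -0.093 for Ighv14-2, -0.10 for Ighv2-2, -0.11 for Ighv8-8, -0.12 for Ighv1-72 and -0.038 for Ighv5-2. It was -0.0077 for Ighv1-9, -0.011 for Ighv8-8 and -0.0091 for Ighv1-72 with limma on log2(FPKM + 0.1), and -0.0076 for Ighv1-9, -0.011 for Ighv8-8 and -0.0089 for Ighv1-72 on log2(FPKM + 1). Leaving out each library in turn gave -0.12 to 0.25 for Ighv1-82, -0.022 to 0.099 for Ighv9-3, -0.081 to 0.096 for Ighv1-9, -0.0027 to 0.17 for Ighv1-64, -0.037 to 0.20 for Ighv1-53, -0.21 to 0.049 for Ighv1-61, -0.27 to 0.11 for Ighv10-1, -0.35 to 1.01 for Ighv11-2, -0.18 to 0.54 for Ighv13-2, -0.00096 to 0.071 for Ighv14-2, -0.070 to 0.11 for Ighv2-2, -0.066 to 0.35 for Ighv7-3, -0.18 to 0.18 for Ighv8-8, -0.027 to 0.036 for Ighv1-72, -0.098 to 0.26 for Ighv5-2, -0.090 to 0.73 for Ighv7-1, -0.17 to 0.39 for Ighv1-81, -0.26 to 0.17 for Ighv1-78 and -0.050 to 0.42 for Ighv1-66. None of these values passed, before or after the change of sign. Without near-identical genes the family share difference in percentage points was -0.0353 for Ighv5 and -0.00169 for Ighv13, and without the leading gene of the family it was -0.00382 for Ighv7 and -0.128 for Ighv10. With a library left out it was -0.149 to 0.31 for Ighv2, -0.332 to 0.348 for Ighv5, -0.0952 to 0.114 for Ighv7, -0.174 to 0.288 for Ighv8, -0.135 to 0.195 for Ighv9, -0.111 to 0.213 for Ighv10, -0.0294 to 0.0435 for Ighv11, -0.0772 to 0.0777 for Ighv13 and -0.0684 to 0.336 for Ighv14.

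Over the whole table, the 985 genes at an adjusted p of 0.05 became 1470 with no filter, 617 with DESeq2, 612 with the replicate block, 2345 when scaled to the Ighv total, and 45 or 41 with limma. The 127 called at 2-fold became 217 with no filter, 74 with DESeq2 and 22 or 19 with limma. Nothing in the labels ties libraries of equal number. Deviations from the genotype means of libraries of equal number correlated at -0.0706 over all genes and at -0.0254 over Ighv genes. With 2 libraries a genotype, each gene gives a single difference per genotype, so this cannot decide whether the samples were paired. With the replicate block Ighv1-19 no longer passed (log2 fold change 0.41, adjusted p = 0.0820, edgeR), and Ighv8-6 was still called. Depth limited the genes with few counts most, and the low call count with 2 libraries a genotype does not show that usage was equal.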
